A study of Gallus gallus with 403 samples.

Results

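The collagen genes of the chicken were followed across 20 tissues and a range of ages. Members were all genes whose probe sets carry 1 platform symbol made of COL, a number, A and a number, which gave 41 of 13009 named genes, measured by 121 of 27168 named probe sets. Where a gene has several probe sets, the brightest one by mean over the arrays stands for it. The choice used names and mean brightness, not any difference between tissues or ages. The series holds 403 Affymetrix chicken genome arrays in 101 groups of 1 tissue and 1 age, 94 of them with 4 arrays, 5 with 3 and 2 with 6. Values are the deposited log2 intensities, on which a difference of 1 is 2-fold. A level is given as a mean ± SD over arrays, and a difference as an estimate ± SE from limma.

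The groups cover abdominal fat (days 1 to 49), brain (days 0 to 49), cerebral cortex (day 7), retina (days 1 to 35), pineal gland (days 1 to 28), lung (days 1 to 42), spleen (days 1 to 28) and liver (days 0 to 56). They also cover duodenum (days 0 to 49), jejunum (days 1 to 42), ileum (day 28), whole intestine (days 0 to 28), cecal epithelia (day 14), tibiotarsus growth plate (days 1 to 28), gastrocnemius muscle (days 1 to 28) and pectoralis muscle (days 0 to 28). Gonads are testes (week 17), ovarian cortex (week 16), oocytes (week 21) and ovary (week 17 and year 2). The labels mark 200 arrays as male and 203 as female, and name no strain, treatment or genetic change. They do not say from when days are counted, nor whether the arrays of a group came from separate animals, so p-values measure only the spread between these arrays. The sample numbers form a first run of 251 arrays and a second run of 152, and ages were compared only within a run.

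Collagens are extracellular proteins whose chains wind into triple helices. Fibrillar collagens assemble into the fibrils that carry tension in connective tissue. Type IV forms the sheet-like network of basement membranes, and fibril-associated collagens with interrupted helices, called FACITs, sit on fibrils and link them to other matrix. Growth plate cartilage is built mainly of type II fibrils with types IX and XI on and in them, and its enlarging chondrocytes make the network-forming type X before bone replaces the cartilage.

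Groups rest on the titles, whose tissue and age the source names share except in 6 pectoralis arrays with conflicting ages. The descriptions were not used, since their text differed from the source name in all 152 second-run arrays. Some arrays went against their labels. The liver arrays of day 56 held albumin (ALB) at 8.03, against 14.61 to 15.0 in the other liver groups. The first-run pectoralis arrays of day 21 held the fast muscle light chain MYL1 at 7.73, and the pectoralis arrays with conflicting age labels held it at 8.6, against 12.87 to 13.84 in the other muscle groups. Myelin basic protein (MBP) was 5.38 to 6.1 in brain of days 1, 14, 21 and second-run day 7 and 10.26 to 12.88 in the other brain groups. The growth factor GDF9, made by oocytes, was 5.92 in the oocyte arrays and 10.11 to 11.74 in the ovary groups. Fat of days 1, 7 and 10 held the 6 adipocyte markers at 6.96 to 7.55, against 11.85 to 12.67 from day 14 on. In the second run, 24 pairs of muscle arrays of different muscle or age resembled each other (r = 0.645 to 0.779 of their deviations), while 96 other pairs gave -0.222 to -0.097. Array medians were 6.05 to 6.47 in the first run and 5.99 to 6.18 in the second. The median SD within a group was 0.09 to 0.202 in 45 groups and 0.372 to 0.537 in the other 56, and the number of arrays limits the precision. Some age comparisons set a wide group against a narrow one, so age and this spread cannot be told apart there. They include first-run brain (0.435 at day 0, 0.099 at day 42) and duodenum (0.458 at day 0, 0.146 at day 35). First-run growth plate (0.176 at day 1, 0.449 at day 21) and ovary (0.372 at week 17, 0.095 at year 2) are among them too. All samples are bulk, so fewer cells of a type and less RNA per cell cannot be told apart.

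Collagen levels differed widely between tissues. The group means of a member spanned 1.588 to 9.358 log2 units, with a median span of 5.934, and 20 of the 41 members spanned 6 or more. Spans and highest tissues were taken for the members only, so no share over all genes stands beside these counts. By the mean of group means, the highest tissue was the growth plate for 13 members and abdominal fat for 10. It was oocytes for 5, lung for 3, spleen for 2, and 1 each for cecal epithelia, gastrocnemius, ileum, jejunum, liver, ovary, pectoralis and testes. The arrays labelled oocytes were low in GDF9. The number of probe sets limits what a level says: 10 members have 1 probe set, and for 11 of the 31 others the chosen probe set correlated under 0.5 with every other probe set of that gene over the 101 group means. COL4A1 (0.076 to 0.302), COL6A2 (0.13), COL6A3 (0.274), COL13A1 (-0.058 to 0.469) and COL23A1 (-0.088 to 0.057) are among these 11.

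**Figure D1:**
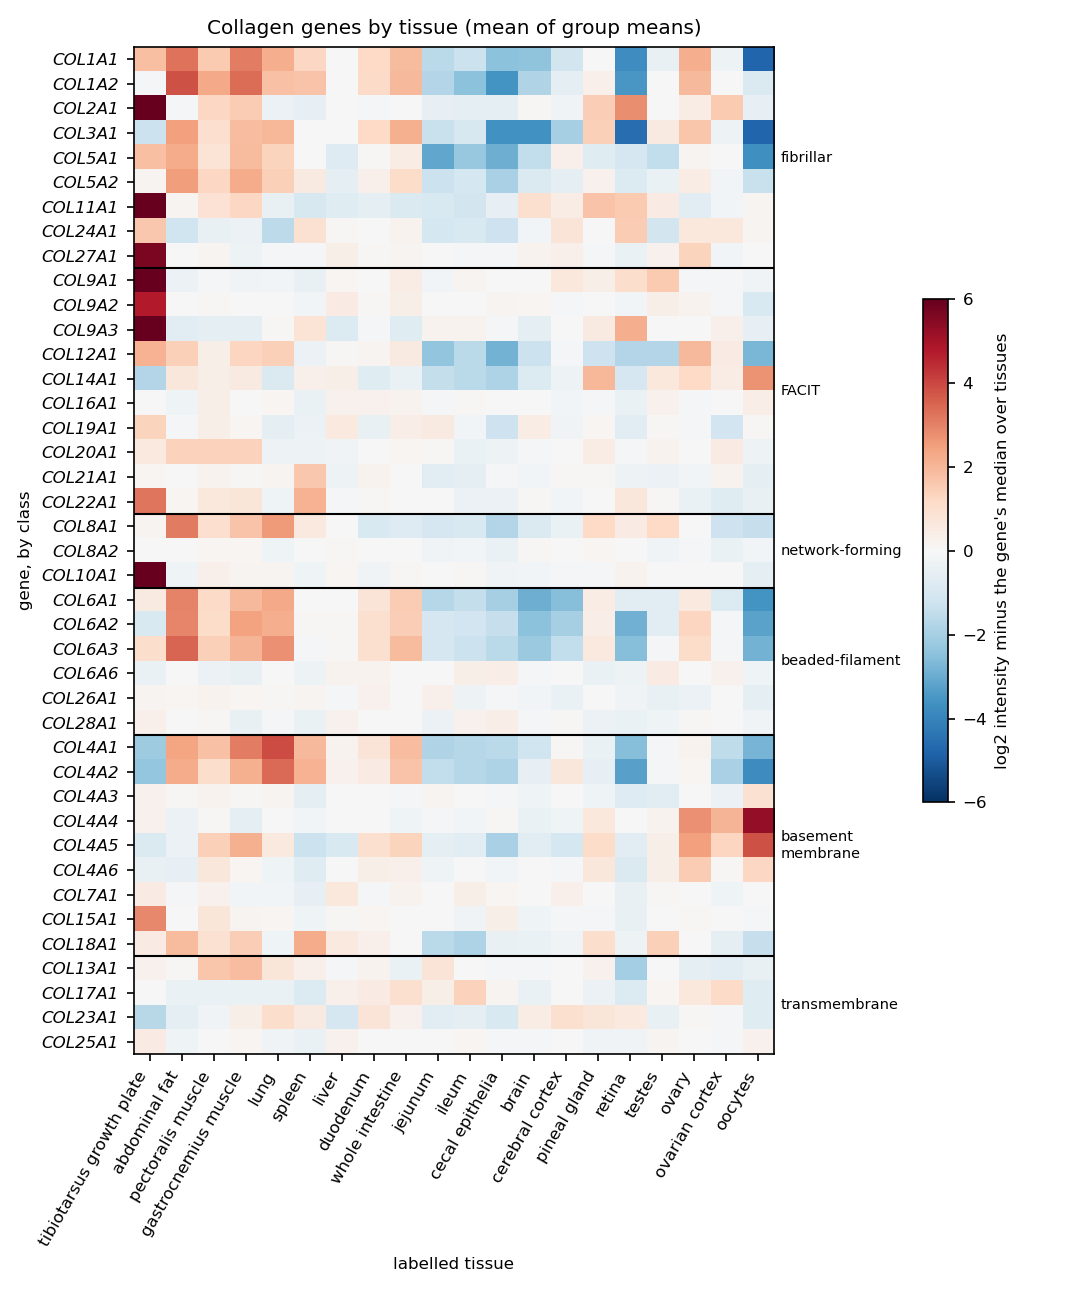
Heat map of 41 collagen genes (rows, by class) in 20 tissues (columns), each cell being the mean of the tissue's group means on the log2 scale minus the gene's median over tissues, with colours ending at 6 units either way. Cartilage collagens stand highest in the growth plate column and 10 members, 8 of them of types I, III, V and VI, in the abdominal fat column.

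The 9 fibrillar members divided between cartilage and other connective tissue. COL1A1 and COL1A2, the chains of type I collagen of skin, tendon and bone, had group means from 5.42 to 14.22 (retina day 7 to fat day 14) and from 5.08 to 13.91 (retina day 9 to fat day 35). COL3A1, the type III chain of stretchable tissue, ranged from 5.33 to 14.27, COL5A1 from 5.65 to 13.01 and COL5A2 from 5.99 to 10.90, the last pair being chains of type V, which starts and limits fibril growth. Fat was the highest tissue for all 5. COL2A1, the chain of cartilage type II, ranged from 5.21 to 14.41, COL11A1, a chain of the type XI found within cartilage fibrils, from 4.79 to 13.81, and COL27A1, a fibrillar chain of cartilage, from 5.04 to 12.03. COL24A1, a fibrillar chain known from developing bone and cornea in mice, ranged from 4.88 to 9.45. The growth plate was the highest tissue for these 4.

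Among the 10 FACITs, the type IX chains that coat cartilage fibrils were highest in the growth plate, with ranges from 4.76 to 14.01 for COL9A1, from 5.0 to 10.87 for COL9A2 and from 5.13 to 13.97 for COL9A3. COL12A1, found on type I fibrils of tendon and other dense tissue, ranged from 5.41 to 13.48, with its highest tissue mean in the growth plate and its highest group at fat day 10. COL14A1, which binds type I fibrils, ranged from 4.71 to 9.97 from growth plate day 21 to pectoralis day 0, and oocytes had its highest tissue mean. COL22A1, known from tissue junctions such as that of muscle and tendon, ranged from 5.05 to 9.69 with its maximum in the growth plate. COL20A1 ranged from 5.70 to 9.56 with its maximum in fat, and COL21A1 from 5.24 to 8.46 with its maximum in spleen. COL16A1 (from 5.87 to 8.63) and COL19A1 (from 4.37 to 8.29) had their highest groups in pectoralis day 21 and liver day 56, arrays that went against their labels, and their highest tissue means in oocytes and growth plate.

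Of the 9 basement membrane members, COL4A1 and COL4A2, the chains of the form found in nearly all basement membranes, ranged from 4.99 to 12.53 and from 5.73 to 13.26, both highest in lung. COL4A3, COL4A4 and COL4A5, chains of the specialised network of kidney and some other membranes, ranged from 5.09 to 7.43, from 4.88 to 11.14 and from 4.45 to 11.12, and had their highest tissue means in oocytes. COL4A6, which pairs with COL4A5 in smooth muscle, ranged from 5.26 to 10.21 and was highest in ovary by tissue mean. COL15A1, a proteoglycan collagen at the outer face of basement membranes, ranged from 5.52 to 9.93 with its maximum in the growth plate, and COL18A1, the source of endostatin, from 5.01 to 10.95 with its highest tissue mean in spleen. COL7A1, the anchoring fibril collagen of skin, ranged from 5.66 to 9.08, with its highest group in the liver arrays of day 56.

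The remaining 13 members are network-forming, beaded-filament or transmembrane collagens. COL10A1, the marker of enlarging chondrocytes, ranged from 4.52 to 13.88, the widest span of all members. COL8A1, a short chain of vessel walls and of the layer under the corneal endothelium, ranged from 4.71 to 11.84 with its maximum in fat, and its partner COL8A2 from 5.53 to 7.47 with its maximum in pectoralis day 21. COL6A1, COL6A2 and COL6A3, the chains of the beaded filaments around cells, ranged from 5.46 to 12.97, from 5.86 to 13.57 and from 5.75 to 13.00, all highest in fat. COL6A6 ranged from 4.73 to 7.15 with its highest tissue mean in testes, COL26A1 from 5.16 to 6.75 in jejunum and COL28A1 from 4.94 to 7.48 in cecal epithelia. The highest group of COL28A1 was fat day 49, however. Its other probe sets, which correlated with the chosen one at 0.342 and 0.456, peaked in fat at 10.14 (day 49) and 9.13 (day 21). The transmembrane COL13A1, known from the junction of nerve and muscle in mice, ranged from 5.47 to 11.78 with its highest tissue mean in gastrocnemius. COL17A1, which anchors epithelial cells, ranged from 5.50 to 8.99 with its maximum in ileum by tissue mean, COL23A1 from 4.47 to 8.91 in lung, and COL25A1, made by neurons in mice, from 4.49 to 6.84 in growth plate. For 7 members the highest single group lay in 2 groups that went against their labels, so the upper ends of their ranges rest on those arrays. COL16A1, COL4A3, COL8A2 and COL26A1 peaked in pectoralis day 21, and COL19A1, COL7A1 and COL25A1 in liver day 56. COL4A4 peaked in the oocyte arrays, which were low in GDF9. COL12A1 and COL5A1 peaked in fat of day 10 and COL8A1 in fat of day 7, arrays low in adipocyte markers.

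Organs were compared in the 42 first-run arrays of day 21, in 9 organ classes, each against the mean of the other 8. A gene counted as called where the adjusted p was below 0.05 and the classes differed by 2 log2 units or more, which is 4-fold. All 41 members were tested, among 12707 genes. The mean of the other classes includes the pectoralis arrays low in MYL1 and the brain arrays low in MBP. Their COL1A1 levels were 7.18 and 6.24, and a low level there raises the difference of another class. With brain of day 28 and no muscle class, 54 called member tests of the other classes kept the call and 5 lost it. The growth plate class had 12 members higher and 2 lower, where 3.99% and 2.58% of all genes were called, and the median difference was 0.37 over members and -0.05 over all genes. The higher ones included all 7 measured cartilage collagens (COL2A1, COL9A1, COL9A2, COL9A3, COL10A1, COL11A1 and COL27A1). Markers of cartilage were at 12.58 to 12.72 in the growth plate arrays of day 21 and 9 of 9 were called higher, while those of endothelium were at 6.35 to 6.63.

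The growth plate arrays read 14.23, 13.81, 14.16 and 13.73 for COL9A1, and the 38 other arrays between 4.83 and 7.85 (7.99 ± 0.17, adjusted p = 7.06e-34). COL11A1 read 13.76, 13.69, 14.06 and 13.74, against 5.14 to 8.20 (7.32 ± 0.13, adjusted p = 4.86e-36). COL10A1 read 12.10, 13.23, 12.94 and 13.61, against 4.88 to 6.74 (7.2 ± 0.15, adjusted p = 2.31e-34). For each of these 3 genes the lowest growth plate array lay more than 5 units above the highest array elsewhere. COL9A3 read 13.47, 13.46, 13.68 and 13.68, against 4.67 to 9.04 (7.16 ± 0.14, adjusted p = 1.55e-35). COL2A1 read 14.50, 13.90, 13.57 and 14.44, against 5.85 to 10.04 (7.10 ± 0.14, adjusted p = 1.04e-34). COL27A1 read 12.03, 12.06, 12.25 and 11.79, against 5.28 to 6.41 (6.14 ± 0.10, adjusted p = 8.87e-38). The groups did not overlap for any of them, and retina was the next class for COL2A1 at 9.9, COL9A3 at 8.92, COL11A1 at 8.04 and COL9A1 at 7.3. COL9A2 read 10.81, 10.61, 10.78 and 11.26, against 4.89 to 6.76 (5.0 ± 0.16, adjusted p = 4.14e-27). COL15A1 read 9.68, 8.54, 9.75 and 11.05, against 5.56 to 8.39 (3.16 ± 0.22, adjusted p = 7.72e-16). Its second array lay only just above the highest array elsewhere.

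Other matrix members were also higher in the growth plate class: COL12A1 (3.08 ± 0.25), and, with arrays within reach of the range elsewhere, COL5A1 (2.84 ± 0.20), COL1A1 (2.48 ± 0.33) and COL22A1 (2.32 ± 0.18). COL4A1 and COL4A2, 2 of the 9 basement membrane members, were lower. COL4A2 read 6.43, 7.41, 6.45 and 5.90 (-2.97 ± 0.29) and COL4A1 5.48, 6.97, 5.71 and 5.54 (-2.34 ± 0.24), within the range of other classes. Of 27 measured genes for making collagen, 16 were higher and 0 lower, a median difference of 3.12, led by PCOLCE2, an enhancer of procollagen processing (5.04 ± 0.21), the lysyl hydroxylase PLOD2 (5.0 ± 0.23), the cross-linking enzyme LOXL2 (4.63 ± 0.13) and the prolyl hydroxylase P3H1 (4.55 ± 0.16). Of 7 fibril-binding proteoglycans, EPYC (7.38 ± 0.13) and FMOD (4.95 ± 0.22) were higher and LUM (-2.11 ± 0.21) lower. The collagen receptors DDR2 (3.42 ± 0.16) and ITGA11 (2.07 ± 0.17) were higher and DDR1 (-2.06 ± 0.19) lower, of 6 measured.

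In abdominal fat 11 members were higher and 0 lower, where 2.82% and 0.378% of all genes were called, with a median of 0.05 over members and -0.01 over all genes. COL6A2 read 12.94, 12.89, 12.90 and 13.11, and between 5.81 and 11.11 in other classes (4.94 ± 0.26, adjusted p = 1e-19). COL1A2 read 12.33, 12.61, 12.46 and 12.98, against 5.18 to 10.80 (4.28 ± 0.39, adjusted p = 2.52e-12). COL1A1 read 13.67, 14.06, 13.78 and 14.21, against 6.01 to 12.65 (4.23 ± 0.33, adjusted p = 2.48e-14). Fat exceeded every other array for these chains of the pericellular filament and the main connective tissue fibril, growth plate arrays included. COL6A1 read 12.80, 12.86, 12.84 and 12.94, against 5.96 to 11.34 (3.94 ± 0.30, adjusted p = 1.61e-14), and COL6A3 12.47, 12.34, 12.49 and 12.55, against 6.37 to 11.86 (3.67 ± 0.25, adjusted p = 4.49e-16). COL3A1 read 13.54, 13.49, 13.57 and 13.48, against 6.18 to 12.85 (3.19 ± 0.47, adjusted p = 3.29e-07). Types III and VI thus also stood above every other class, with the gaps for COL6A3 and COL3A1 under 1 unit. COL18A1 read 10.60, 11.14, 11 and 11.05, against 5.17 to 10.37 (2.66 ± 0.21, adjusted p = 7.96e-14). COL5A2 read 10.35, 10.44, 10.41 and 10.26, against 5.90 to 9.60 (2.60 ± 0.17, adjusted p = 3.68e-16). COL4A1 (3.96 ± 0.24), COL4A2 (3.90 ± 0.29) and COL5A1 (2.93 ± 0.20) were also called, with arrays that overlapped those of lung or growth plate. Collagen-making genes called were LOXL1 (3.16 ± 0.18), SPARC (2.64 ± 0.27), PLOD2 (2.40 ± 0.23) and SERPINH1, the collagen chaperone (2.18 ± 0.26), all higher, of 27. Of the 7 proteoglycans LUM, BGN, OGN and DCN were higher, by 4.00 ± 0.21, 3.28 ± 0.27, 2.77 ± 0.31 and 2.41 ± 0.32.

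In lung 7 members were higher and 1 lower (2.89% and 0.275% of all genes), with medians of 0.07 and 0.01. COL4A1 read 11.84, 11.69, 11.79 and 11.70 (4.21 ± 0.24, adjusted p = 3.78e-18) and COL4A2 12.64, 12.49, 12.74 and 12.72 (3.89 ± 0.29, adjusted p = 8.65e-15), beside fat arrays of COL4A1 at 11.69, 11.50, 11.84 and 11.10 and of COL4A2 at 12.34, 12.92, 12.70 and 12.64. Lung and fat overlapped for both chains and stood above the remaining 7 classes. The other higher members, all within the range of the other arrays, were COL6A3 (2.69 ± 0.25), COL6A2 (2.51 ± 0.26), COL1A1 (2.39 ± 0.33), COL3A1 (2.36 ± 0.47) and COL8A1 (2.12 ± 0.26). COL24A1 was lower, at 5.28, 5.40, 5.34 and 5.37, against 5.47 to 9.23 (-2.0 ± 0.20, adjusted p = 1.78e-11), which sits at the threshold. Endothelial markers were at 9.67 to 9.95 in these arrays and 6 of 8 were called higher. Whether they account for the type IV levels was not tested. The collagen-binding integrin chains ITGA1 (3.21 ± 0.29) and ITGB1 (3.10 ± 0.17) were higher as well.

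Spleen had COL4A2 (11.64, 11.43, 11.54 and 11.30, difference 2.58 ± 0.29, adjusted p = 4.79e-10) and COL4A1 (10.24, 9.71, 10.49 and 9.92, 2.34 ± 0.24, adjusted p = 6.76e-11) higher and 0 lower, where 4.19% and 0.59% of all genes were called. Both chains lay below lung and fat and above the other classes, and the median was -0.16 over members and 0.02 over all genes. In the pineal gland COL14A1 and COL3A1 were higher and 0 lower (2.86% and 0.323% of all genes, medians -0.01 and -0.04). COL14A1 read 9.15, 9.13, 9.45 and 8.93 in the pineal gland and between 4.32 and 8.40 elsewhere (3.09 ± 0.19, adjusted p = 8.09e-18). COL3A1 read 12.69, 12.82, 12.62 and 12.73 (2.29 ± 0.47, adjusted p = 7.86e-05). Its class mean of 12.71 lay below fat (13.52) and beside lung (12.78). The proteoglycans DCN (2.88 ± 0.32) and OGN (2.14 ± 0.31) were also higher in pineal gland.

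Retina had lower type I and III chains and higher COL2A1, whose product is part of the vitreous. It had 2 members higher and 8 lower (7.06% and 2.7% of all genes), with medians of -0.84 and -0.08. With each array centred on its median, 60.3% of all called genes were higher instead of 72.3%. COL13A1 was lowest, at 5.92, 5.66, 5.36 and 5.38, against 8.50 to 11.46 elsewhere (-3.64 ± 0.12, adjusted p = 1.43e-27). This rests on 1 of 6 probe sets, which correlated at -0.058 to 0.469 with the others over the groups. COL2A1 read 10.04, 9.82, 9.78 and 9.98 (2.38 ± 0.14, adjusted p = 2.32e-18) and COL24A1 9.12, 9.11, 8.92 and 8.97 (2.14 ± 0.20, adjusted p = 7.95e-13). COL2A1 lay below the growth plate, which COL24A1 overlapped, and over all its probe sets COL2A1 gave -0.18. COL1A1 read 6.31, 6.92, 6.50 and 9.46 (-3.23 ± 0.33, adjusted p = 1.48e-11), COL3A1 6.18, 6.68, 7.60 and 10.86 (-3.21 ± 0.47, adjusted p = 1.08e-07) and COL1A2 5.67, 5.66, 5.68 and 7.88 (-2.89 ± 0.39, adjusted p = 1.47e-08). Replicate 4 was the highest array for all 3, and the arrays overlapped those of brain. COL4A2 (-2.86 ± 0.29), COL6A3 (-2.48 ± 0.25), COL6A2 (-2.44 ± 0.26) and COL4A1 (-2.25 ± 0.24) were lower too, while COL6A1 (0.32 ± 0.30), COL5A1 (-0.90 ± 0.20) and COL5A2 (-0.14 ± 0.17) were not called.

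Brain, whose arrays of day 21 were low in MBP, had 0 members higher and 11 lower (3.04% and 2.56% of all genes), with medians of -0.70 and -0.01. COL6A1 was the member without overlap, at 6.35, 6.31, 5.96, 6.15, 6.18 and 6.25, against 6.45 to 12.94 (-3.56 ± 0.25, adjusted p = 5.61e-16). The others, which reached into the range of the other arrays, were COL1A1 (-4.42 ± 0.27), COL3A1 (-4.39 ± 0.40), COL1A2 (-3.67 ± 0.33), COL6A3 (-3.0 ± 0.21), COL5A1 (-2.68 ± 0.17), COL6A2 (-2.57 ± 0.21), COL4A1 (-2.38 ± 0.20), COL12A1 (-2.20 ± 0.21), COL8A1 (-2.06 ± 0.21) and COL9A3 (-2.01 ± 0.11). With brain arrays of day 28 in their place, with MBP at 10.58, 7 members were called. The proteoglycans DCN (-4.13 ± 0.27) and LUM (-3.51 ± 0.18) were lower in brain as well.

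In the intestine class only COL18A1 was called, lower (-2.09 ± 0.16, adjusted p = 5.23e-15), with 0 members higher (1.2% lower and 3.78% higher of all genes, medians -0.27 and -0.08). Its arrays overlapped the range of other classes, without replicate 2 of each group 0 members were called, and without replicate 1 it was 2. The muscle class rests on the pectoralis arrays of day 21 that were low in MYL1. It had 1 member higher and 4 lower (1.08% and 16.7% of all genes, medians -0.30 and -0.31), and quantile normalization turned the share of higher calls among all genes from 6.1% to 43.0% and the member count to 8. COL13A1 read 10.82, 10.58, 11.46 and 11.25, against 5.36 to 9.75 (2.49 ± 0.12, adjusted p = 2.62e-22). COL1A1 (-3.37 ± 0.33), COL4A1 (-2.64 ± 0.24), COL6A2 (-2.35 ± 0.26) and COL4A2 (-2.20 ± 0.29) were lower. At day 7, with both runs, each of these 4 was higher in muscle instead, at 2.54, 2.77, 1.90 and 2.10. That fit also put gastrocnemius in the muscle class, whole intestine in the intestine class, and added a liver class. Liver markers were at 9.67 to 10.39 in those gastrocnemius arrays. Without replicate 4 the day 21 count was 8. At day 7 the brain class had 2 members called in place of 11, and fat COL4A1 gave -0.20.

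The mean over all probe sets of a gene, in place of the brightest, lowered several of these counts: fat from 11 to 7, brain from 11 to 3, lung from 8 to 1, retina from 10 to 3, and pineal gland and spleen from 2 to 0. The growth plate count stayed within 1.5 times under every alternative run.

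Age was compared between a late and an early group within 1 tissue and run, the first run for fat starting at day 10 and the retina at day 9. Liver ended at day 49, since the arrays of day 56 are labelled female only. Those arrays also went against their tissue label. First-run jejunum, pineal gland, spleen and gastrocnemius and second-run whole intestine were not compared by age. The call there needed an adjusted p below 0.05 and 1 log2 unit or more. Dim genes were not tested, which left out between 2 and 10 members per comparison, COL25A1 and COL10A1 most often. In the growth plate, 0 of 38 members tested were called between days 1 and 21 of the first run (0% of all genes), and 6 had an unadjusted p under 0.05. Between days 7 and 28 of the second run 0 of 38 were called by limma (0% of all genes), and 4 had an unadjusted p under 0.05. Fits to the groups compared alone also called 0. The cartilage collagens were at their high level from day 1: COL2A1 was 14.41 ± 0.20 at day 1, 13.85 ± 0.67 at day 7, 13.06 ± 0.88 at day 14, 14.10 ± 0.45 at day 21 and 13.69 ± 0.49 at day 28. COL10A1 was 13.88 ± 0.24, 13.48 ± 0.34, 13.04 ± 0.53, 12.97 ± 0.64 and 12.44 ± 0.88 at these ages. COL10A1 was not called in either run: its difference was -0.91 ± 0.32, adjusted p = 0.193 in the first and -1.04 ± 0.41, adjusted p = 0.423 in the second, with the same sign. COL18A1 had the largest difference of the first run (1.21 ± 0.35, adjusted p = 0.167). An array of day 1 and one of day 21 matched each other, and without these 2 the count was 3. Leaving out replicate 2 gave 2 calls. On simulated data the first-run fit recovered 53% of differences of 1.5 and 71% of those of 2, so changes of that size can be missed. Medians were 0.01 over members and 0.01 over all genes in the first run, 0.03 and 0.07 in the second.

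The abdominal fat arrays differed in collagen make-up between the first weeks and later ages, in both runs. The early arrays were low in adipocyte markers, so age and the make-up of these arrays cannot be told apart. COL12A1, COL8A1 and COL5A1 fell and 6 members rose from day 10 to day 49 (5.9% higher and 27% lower of all genes, 36 members tested). In the second run, from day 1 to day 42, these 3 fell again and 9 members rose (7.74% higher and 32% lower of all genes, 38 tested). The medians were 0.41 and 0.22 over members and -0.20 and -0.38 over all genes. With quantile normalization 14 members were called in the first run in place of 9. The scaling of the arrays moved the split of calls over all genes: quantile normalization raised the share of higher calls from 17.9% to 44.3% in the first run and from 19.5% to 46.5% in the second (38.2% with centred arrays), and no called member reversed.

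COL8A1 read 6.98, 9.17, 7.54 and 7.07 at day 49 and 11.46, 11.49, 12.11 and 11.67 at day 10 (-3.99 ± 0.44, adjusted p = 1.16e-06). COL12A1 read 9.30, 11.12, 10.46 and 7.78 and 13.59, 13.56, 13.27 and 13.51 (-3.82 ± 0.52, adjusted p = 9.9e-06). COL5A1 read 10.24, 10.18, 10.78 and 10.57 and 12.97, 13.05, 12.98 and 13.05 (-2.57 ± 0.18, adjusted p = 6.47e-09). The late arrays of COL8A1 and COL12A1 spread over more than 2 units but none reached an early array. COL6A2 read 12.36, 12.70, 12.77 and 12.34 and 10.06, 9.69, 10.0 and 10.43 (2.50 ± 0.15, adjusted p = 1.81e-09), COL6A1 12.54, 12.90, 12.88 and 12.76 and 11.08, 10.71, 11.16 and 11.29 (1.71 ± 0.12, adjusted p = 9.52e-09), and COL4A1 10.88, 10.74, 10.67 and 11.18 and 8.74, 9.02, 9.32 and 9.34 (1.76 ± 0.19, adjusted p = 1.05e-06). COL6A2, COL6A1 and COL4A1 thus lay higher in every late array, while COL6A3, another type VI chain, was not called in either run (0.12 ± 0.11 and 0.07 ± 0.38). COL20A1 (1.74 ± 0.25), COL4A2 (1.27 ± 0.17) and COL28A1 (1.26 ± 0.14) rose without overlap as well.

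In the second run COL12A1 read 6.92, 6.30, 6.38 and 8.94 at day 42 and 12.63, 12.55, 13.29 and 13.42 at day 1 (-5.84 ± 0.53, adjusted p = 3.84e-11). COL8A1 read 9.78, 6.47, 6.40 and 6.84 and 11.78, 12.16, 11.32 and 11.60 (-4.34 ± 0.47, adjusted p = 2.95e-09), and COL5A1 9.71, 8.02, 9.05 and 10.46 and 11.87, 12.57, 11.81 and 12.18 (-2.80 ± 0.41, adjusted p = 1.05e-06). Again no late array reached an early one. COL24A1 (1.91 ± 0.41), COL4A1 (1.56 ± 0.39), COL6A1 (1.41 ± 0.37), COL9A2 (1.38 ± 0.35), COL28A1 (1.35 ± 0.35) and COL4A6 (1.15 ± 0.38) rose without overlap, and COL6A2 (2.05 ± 0.46), COL4A2 (1.2 ± 0.38) and COL20A1 (1.17 ± 0.40) rose with overlapping arrays.

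**Figure D2:**
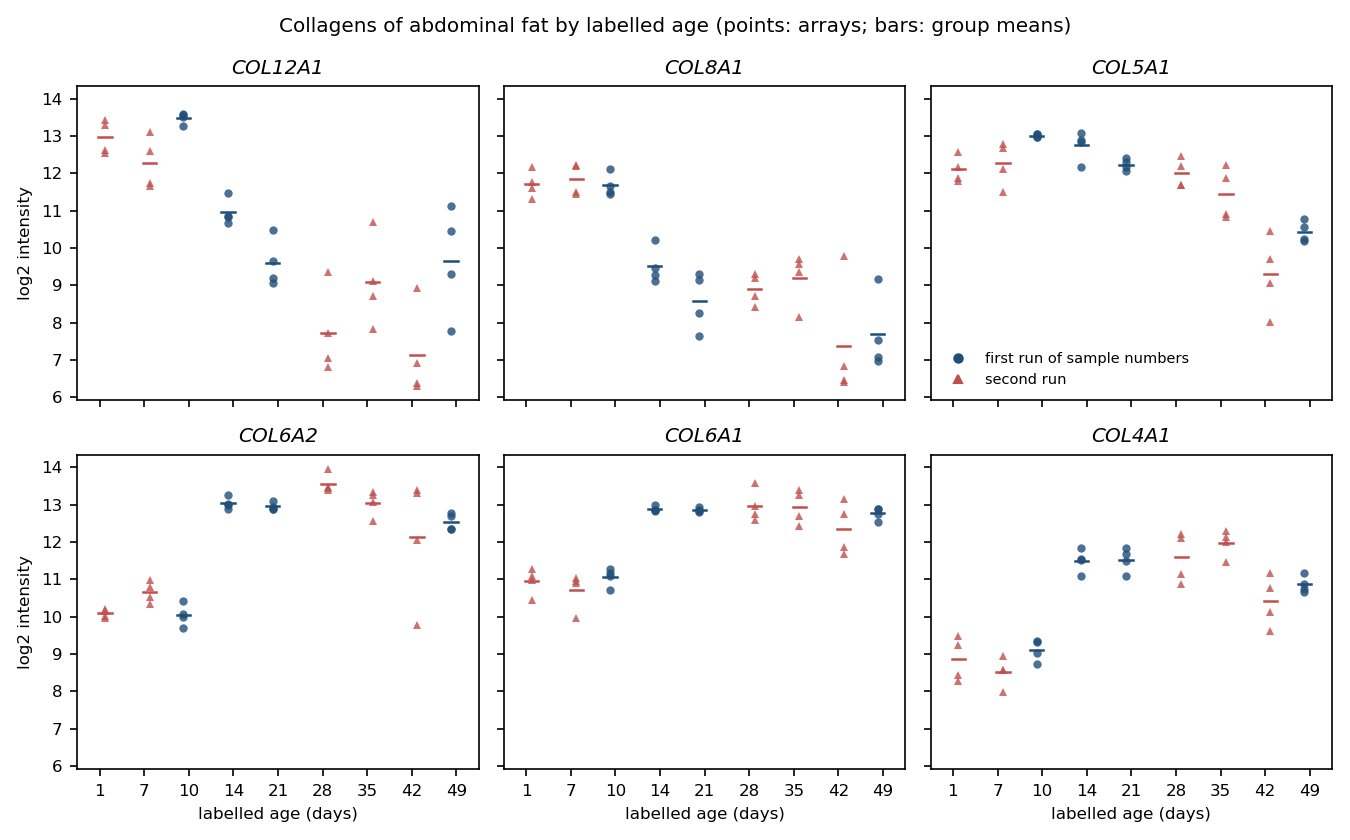
Log2 intensity of 6 collagen genes in each abdominal fat array by age in days, 1 panel per gene, with the 2 runs marked apart. COL12A1, COL8A1 and COL5A1 are high at days 1, 7 and 10 and lower later, and COL6A2, COL6A1 and COL4A1 are the reverse.

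Other markers moved at the same ages in fat. All 6 adipocyte markers were called higher in both runs, and 6 of 8 endothelial markers higher and 1 lower, with endothelial levels of 6.35 to 6.73 at days 1, 7 and 10 and 8.68 to 9.29 later. Fibroblast markers were at 9.99 to 10.21 at those early ages and 9.09 to 9.78 later. Over all fat arrays the skeletal muscle list averaged 5.94, with a highest array of 11.05. The part of these markers in the collagen differences was not tested. Collagen-making genes mostly fell, 14 of 27 in the first run and 16 of 27 in the second, with 2 higher in each. PLOD2 differed by -3.36 ± 0.39 and -3.88 ± 0.44, and the prolyl hydroxylase P4HA1 by -2.38 ± 0.14 and -3.23 ± 0.41. The proteoglycans OGN (3.26 ± 0.50 and 3.06 ± 0.49) and BGN (3.11 ± 0.61 and 2.16 ± 0.47) rose in both runs.

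The duodenum had lower fibrillar and type VI collagens at the later age in both runs. From day 0 to day 35, 18 members fell and 0 rose of 39 tested (11% lower and 11.3% higher of all genes). From day 1 to day 49, 13 fell and 1 rose of 36 (8.22% lower and 9.8% higher of all genes). Medians were -0.69 and -0.75 over members against 0.06 and 0.07 over all genes. COL4A5 read 6.33, 6.04, 5.55 and 5.82 at day 35 and 9.77, 9.59, 10.48 and 11.19 at day 0 (-4.32 ± 0.37, adjusted p = 2.31e-09). COL1A2 read 9.49, 9.61, 8.85 and 8.90 and 12.13, 12.28, 13.18 and 12.71 (-3.36 ± 0.40, adjusted p = 3.31e-07), and COL14A1 5.53, 5.46, 5.49 and 5.38 and 8.09, 8.32, 8.77 and 9.16 (-3.12 ± 0.20, adjusted p = 1.44e-11). Every late array lay more than 2 units below every early one for these 3. COL6A1 read 9.40, 9.49, 8.99 and 9.03 and 11.51, 12.22, 11.52 and 11.66 (-2.50 ± 0.25), COL1A1 11.12, 11.21, 10.36 and 10.33 and 12.96, 12.87, 13.59 and 13.24 (-2.41 ± 0.27), and COL6A3 9.66, 9.66, 9.61 and 9.37 and 11.29, 11.17, 12.67 and 12.42 (-2.31 ± 0.26). Both ages stayed apart in these too. The other falls, none overlapping, were COL6A2 (-2.22 ± 0.27), COL12A1 (-2.20 ± 0.30), COL5A1 (-2.14 ± 0.20), COL5A2 (-1.98 ± 0.27), COL3A1 (-1.96 ± 0.24), COL4A2 (-1.95 ± 0.28), COL23A1 (-1.75 ± 0.27), COL4A6 (-1.65 ± 0.18), COL4A1 (-1.61 ± 0.37), COL18A1 (-1.42 ± 0.25), COL24A1 (-1.2 ± 0.24) and COL17A1 (-1.14 ± 0.30).

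The second duodenum run gave COL14A1 at 5.45, 5.57, 6.01 and 5.43 on day 49 and 8.58, 8.34, 8.62 and 8.01 on day 1 (-2.77 ± 0.35, adjusted p = 2.18e-07). COL1A2 read 9.61, 9.73, 9.93 and 10.39 and 12.37, 12.28, 12.94 and 12.90 (-2.71 ± 0.34, adjusted p = 1.6e-07), and COL1A1 10.31, 10.66, 10.57 and 10.60 and 11.97, 12.53, 13.47 and 13.72 (-2.39 ± 0.36, adjusted p = 7.6e-06). These 3 fell without overlap in both runs. COL4A5 read 8.10, 8.08, 7.66 and 8.08 and 9.65, 9.86, 10.84 and 10.88 (-2.33 ± 0.36, adjusted p = 1.11e-05). COL4A2 read 10.0, 9.45, 10.22 and 9.16 and 11.34, 11.51, 11.36 and 12.20 (-1.90 ± 0.37, adjusted p = 0.000245). COL13A1 was the member that rose, at 10.36, 9.39, 10.22 and 10.35 against 9.05, 8.40, 8.78 and 8.46 (1.41 ± 0.36, adjusted p = 0.00438). COL6A3 (-2.33 ± 0.39), COL5A1 (-1.78 ± 0.38), COL12A1 (-1.74 ± 0.36), COL6A2 (-1.71 ± 0.35), COL4A6 (-1.44 ± 0.39) and COL5A2 (-1.22 ± 0.35) fell without overlap, and COL6A1 (-1.73 ± 0.39) and COL23A1 (-1.53 ± 0.38) with it.

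**Figure D3:**
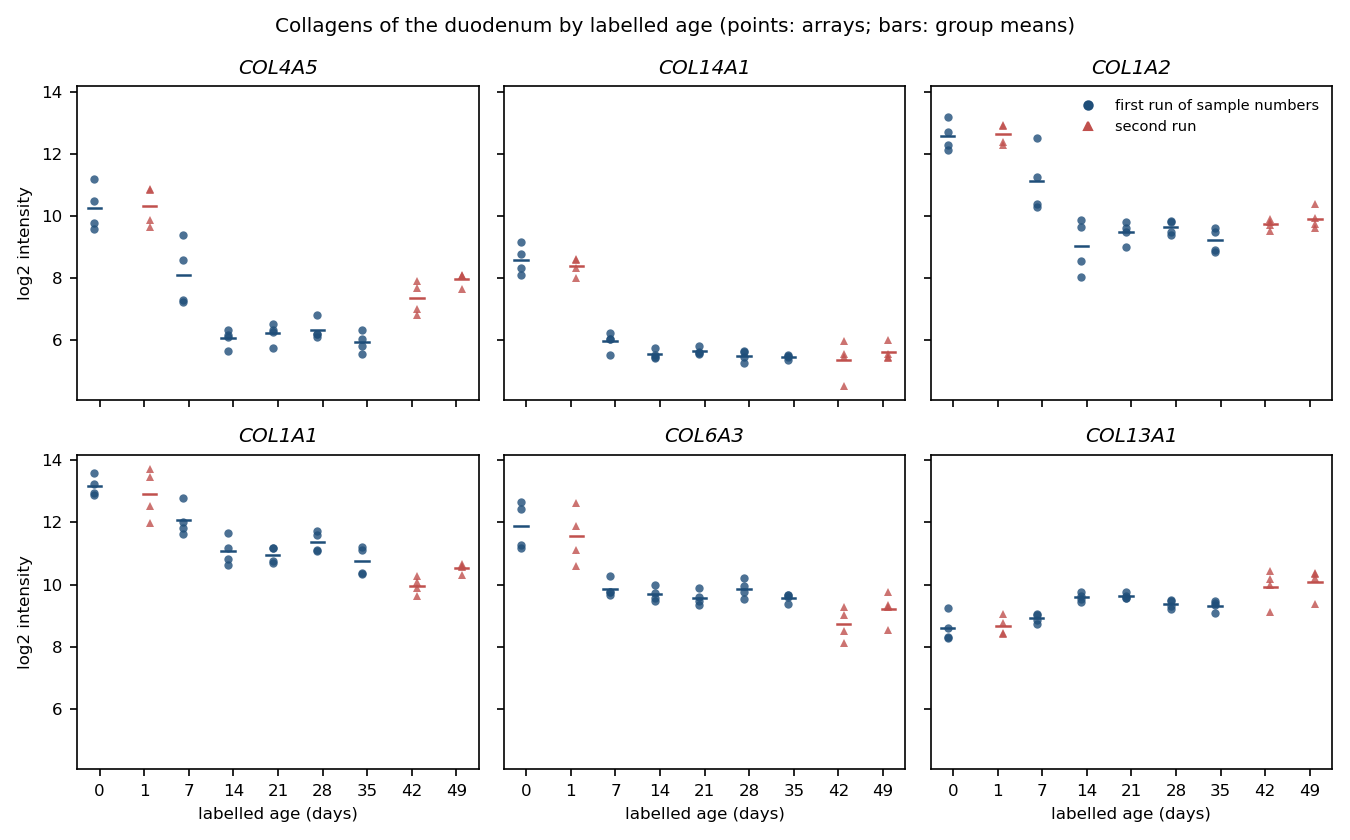
Log2 intensity of 6 collagen genes in each duodenum array by age in days, 1 panel per gene, with the 2 runs marked apart. COL4A5, COL14A1, COL1A2, COL1A1 and COL6A3 are lower at the last than at the first age of either run, and COL13A1 is higher at day 49 than at day 1 in the second run.

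Other cell markers of the duodenum moved too. The fibroblast list went from 8.11 to 7.17 in the first run and from 8.12 to 7.36 in the second, with 5 of 10 genes lower in each. Smooth muscle markers went from 10.48 to 9.07 and from 10.5 to 9.28, with 3 of 5 and 3 of 4 lower, while the intestinal epithelium list rose from 11.71 to 12.8 and from 10.94 to 12.33. Whether these account for the collagen levels was not tested. In the first run the median SD was 0.458 at day 0 and 0.146 at day 35, so age and spread cannot be told apart. In the second run it was 0.49 at day 1 and 0.436 at day 49. Of the collagen-making genes LOXL1 (-1.75 ± 0.19 and -2.96 ± 0.40) and PLOD2 (-1.58 ± 0.39 and -2.10 ± 0.34) fell in both runs, among 8 and 4 lower of 26. The proteoglycan BGN fell in both (-2.56 ± 0.50 and -3.50 ± 0.36).

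In jejunum COL1A2, COL6A3 and COL1A1 fell and 0 rose from day 1 to day 42, of 31 tested. Of all genes, 1.43% were called lower and 3.98% higher, with medians of -0.56 over members and 0.04 over all genes. COL1A2 read 8.24, 6.60, 6.79 and 7.97 at day 42 and 9.51, 9.04, 9.10 and 9.69 at day 1 (-1.94 ± 0.46, adjusted p = 0.00694). COL1A1 read 7.31, 7.77, 8.21 and 6.82 and 9.31, 8.55, 9.03 and 8.45 (-1.31 ± 0.39, adjusted p = 0.0391), and COL6A3 gave -1.54 ± 0.42, adjusted p = 0.0225 with overlapping arrays. Without replicate 2 of each group 1 member was called and without replicate 3 it was 0. Quantile normalization turned the share of higher calls among all genes from 73.6% to 60.1%.

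In whole intestine 6 members fell and 0 rose from day 0 to day 14, of 32 tested. Of all genes, 1.6% were called lower and 2.74% higher, with medians of -0.32 over members and -0.04 over all genes. COL14A1 read 5.93, 5.66, 5.94 and 5.84 at day 14 and 7.68, 8.14, 8.37 and 7.94 at day 0 (-2.19 ± 0.16, adjusted p = 3.2e-09). COL4A5 read 7.98, 7.28, 7.61 and 7.47 and 9.20, 9.46, 9.52 and 9.37 (-1.80 ± 0.14, adjusted p = 7.08e-09). Neither overlapped, nor did COL5A1 (-1.43 ± 0.12), COL6A3 (-1.36 ± 0.12), COL1A1 (-1.33 ± 0.10) or COL17A1 (-1.32 ± 0.17). In these arrays the fibroblast list was 7.98 at day 0 and 7.9 at day 14 with 0 of 10 genes called, and smooth muscle 10.71 and 10.53 with 0 of 5. The mean over all probe sets of a gene called 2.

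In liver 6 members fell and 2 rose from day 0 to day 49, of 36 tested. Of all genes, 8.28% were called lower and 4.96% higher, with medians of -0.09 over members and -0.04 over all genes. COL18A1, which hepatocytes make in mammals, read 8.09, 8.94, 8.94 and 9.06 at day 49 and 10.14, 11.21, 11.47 and 10.29 at day 0 (-2.02 ± 0.25, adjusted p = 3.09e-07). COL1A2 read 9.24, 10.01, 9.81 and 9.72 and 11.37, 11.56, 11.78 and 11.84 (-1.94 ± 0.23, adjusted p = 1.2e-07), and COL1A1 10.84, 10.30, 10.46 and 10.73 and 12.71, 12.38, 12.28 and 12.40 (-1.86 ± 0.25, adjusted p = 1.02e-06). All late arrays lay below all early ones in these 3. COL13A1 rose, at 9.38, 10.35, 9.59 and 10.10 against 8.75, 8.05, 7.76 and 8.13 (1.68 ± 0.18, adjusted p = 3.27e-08), as did COL9A2 (1.09 ± 0.16). COL5A1 (-1.39 ± 0.19), COL14A1 (-1.27 ± 0.23) and COL12A1 (-1.16 ± 0.20) fell without overlap. Quantile normalization turned the share of higher calls among all genes from 37.4% to 48.4%, and the mean over probe sets called 5 members.

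In the first brain run 8 members fell and 0 rose from day 0 to day 42, of 37 tested. Of all genes, 6.77% were called lower and 4.69% higher, with medians of -0.35 over members and 0.02 over all genes. COL1A1 read 7.29, 6.56, 6.14 and 6.64 at day 42 and 11.13, 11.49, 10.76 and 10.88 at day 0 (-4.41 ± 0.23, adjusted p = 1.46e-17). COL1A2 read 7.54, 5.69, 6.03 and 5.62 and 10.02, 9.79, 10.58 and 10.20 (-3.93 ± 0.30, adjusted p = 1.23e-12), and COL3A1 7.16, 6.54, 6.07 and 6.48 and 10.10, 9.56, 9.70 and 9.82 (-3.23 ± 0.26, adjusted p = 4.09e-12). Late and early arrays of these fibrillar chains were apart by more than 1 unit. COL4A1 read 6.71, 6.19, 6.20 and 6.14 and 8.75, 8.10, 8.94 and 9.28 (-2.46 ± 0.21, adjusted p = 2.2e-11), and COL11A1 (-1.95 ± 0.29), COL18A1 (-1.88 ± 0.29), COL4A2 (-1.80 ± 0.24) and COL6A1 (-1.02 ± 0.20) fell without overlap. Fibroblast markers went from 7.5 to 6.94, with 3 of 9 called lower, and their part was not tested. The 2 groups also differ in spread (median SD 0.435 at day 0 and 0.099 at day 42), which cannot be told apart from age. Centring arrays turned the share of higher calls among all genes from 40.9% to 51.6%. Over all probe sets 4 members were called.

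At day 7 both runs hold brain, and the level of COL1A1 differed between them. It was 11.33, 10.97, 10.67 and 10.94 in the first and 6.06, 5.74, 6.33 and 6.54 in the second, whose arrays were low in MBP. First-run brain of day 21, also low in MBP, held COL1A1 at 6.24. First-run brain of day 42, where COL1A1 was low too, held MBP at 10.84. The cause of these levels was not tested. In the second run 6 members rose and 1 fell from day 1 to day 49, of 34 tested (15.5% and 12.6% of all genes, medians 0.28 and -0.03). COL18A1 fell, from 8.29, 8.36, 8.79 and 8.46 to 6.73, 6.86, 6.43 and 5.91 (-1.99 ± 0.42, adjusted p = 0.000245). COL4A2 read 9.71, 8.25, 8.62 and 9.71 at day 49 and 7.99, 7.52, 6.25 and 7.45 at day 1 (1.77 ± 0.45, adjusted p = 0.00201). COL13A1 (1.73 ± 0.39) and COL23A1 (1.55 ± 0.38) rose without overlap, and COL12A1 (1.82 ± 0.41), COL5A1 (1.28 ± 0.38) and COL24A1 (1.08 ± 0.36) with it. MBP was 6.06 at day 1 and 10.26 at day 49, and 4 of 6 neuronal markers rose with age, so the age and the make-up of these arrays cannot be told apart. Over all probe sets 2 members were called.

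**Figure D4:**
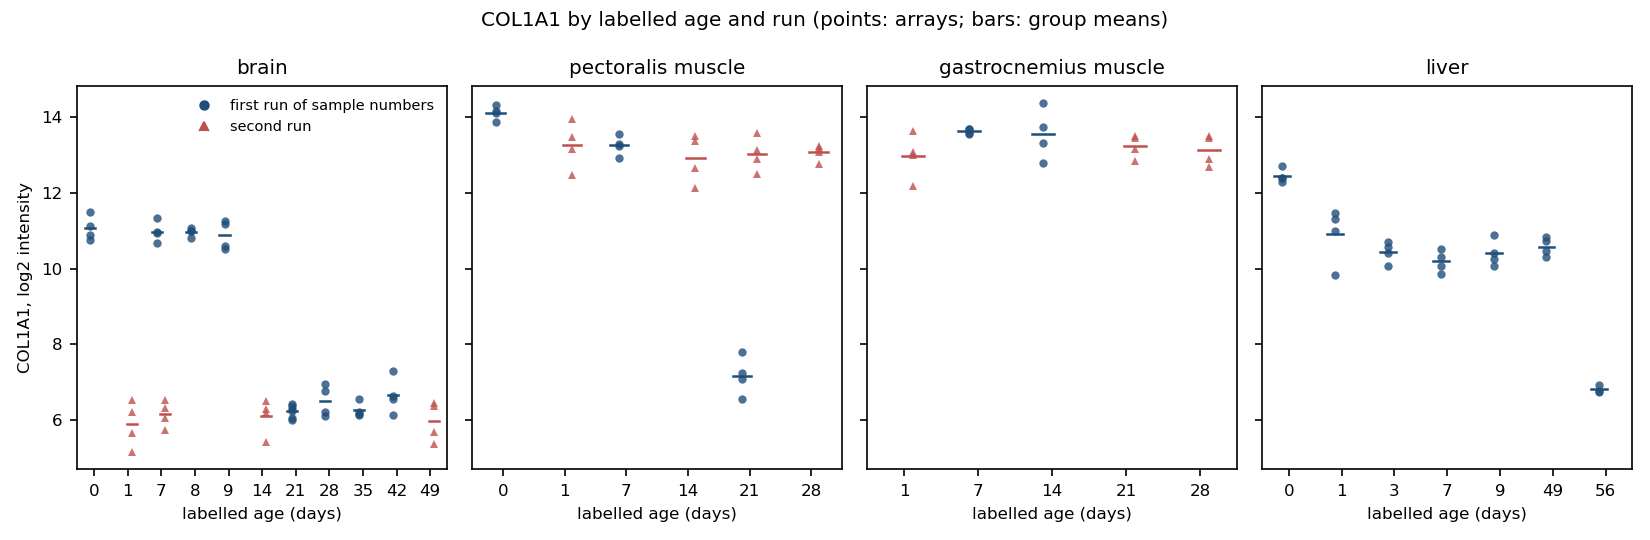
Log2 intensity of COL1A1 in each array of brain, pectoralis, gastrocnemius and liver by age in days, with the 2 runs marked apart. In the first brain run the arrays of day 0 lie between 10.76 and 11.49 and those of day 42 between 6.14 and 7.29, and first-run pectoralis of day 21 lies between 6.57 and 7.81.

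Pectoralis of the first run had 9 members higher and 20 lower at day 21 than at day 0, of 39 tested (12.1% and 35.4% of all genes, medians -1.52 and -0.30). The arrays of day 21 are those low in MYL1, and the skeletal muscle list was at 9.32 to 10.0 in them. Quantile normalization turned the share of higher calls among all genes from 25.5% to 49.8%, and centred arrays gave 42.1%. COL1A1 read 7.08, 7.24, 6.57 and 7.81 at day 21 and 14.17, 14.11, 14.31 and 13.87 at day 0 (-6.94 ± 0.34, adjusted p = 3.29e-14), while second-run arrays of day 21 read 12.89, 13.13, 12.49 and 13.59. With day 7 in place of day 21, 9 members fell and 0 rose, where 3.35% and 2.09% of all genes were called lower and higher. Among them were the cartilage chain COL11A1 (-3.17), COL4A6 (-2.86), COL4A5 (-2.84), COL12A1 (-2.75), COL2A1 (-2.45), COL14A1 (-1.88) and COL15A1 (-1.45), while COL3A1 gave 0.08.

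At day 0 of pectoralis COL4A5 was 11.12 ± 0.39, at day 1 9.06 ± 0.19, at day 7 8.28 ± 0.71 and at day 14 8.20 ± 0.65. COL4A6 was 10.21 ± 0.31, 7.30 ± 0.28, 7.35 ± 0.45 and 6.29 ± 0.57 at these ages, day 0 being its highest group in the series. COL14A1 was 9.97 ± 0.29, 7.35 ± 0.91, 8.09 ± 0.58 and 7.12 ± 0.58. Days 1 and 14 are of the second run, so these means are given as values.

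In second-run muscle, 0 of 35 members were called in pectoralis from day 1 to day 28 (0.305% of all genes) and 7 had an unadjusted p under 0.05. In gastrocnemius 0 of 34 were called by limma (0.248%) and 4 had an unadjusted p under 0.05. Fits to the groups compared alone called 0 in both. The arrays of days 21 and 28 of both muscles form the sets that resembled each other, so age and muscle cannot be told apart there. The age change of gastrocnemius against that of pectoralis gave 0 of 35 (0% of all genes), with 1 at an unadjusted p under 0.05. Medians over members were -0.21, -0.18 and 0.05, and over all genes -0.08, -0.07 and 0.00.

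Between the muscles at day 7, gastrocnemius, a leg muscle, had 4 members higher than pectoralis and 0 lower, of 39 tested (4.53% and 3.79% of all genes, medians 0.05 and 0.00). COL12A1 read 11.45, 11.54, 10.94 and 11.24 in gastrocnemius and 8.72, 7.69, 8.77 and 8.04 in pectoralis (2.99 ± 0.38, adjusted p = 4.45e-07). COL23A1 read 7.2, 7.25, 7.39 and 8.21 and 5.92, 5.46, 6.59 and 5.54 (1.64 ± 0.35, adjusted p = 0.00162), and COL13A1 10.82, 11.41, 10.97 and 11.47 and 9.82, 9.75, 10.31 and 10.49 (1.07 ± 0.34, adjusted p = 0.0383). The muscles did not overlap in these, and did for COL11A1 (1.63 ± 0.40, adjusted p = 0.00606). Liver markers were at 9.67 to 10.39 in these gastrocnemius arrays and 5.55 to 6.3 in pectoralis, with 6 of 6 called higher. Their part was not tested. Without replicate 4 of each muscle 2 members were called, and with the replicate number as a block it was 7.

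In the retina the share of members called by age was no larger than that of all genes, in either direction. From day 9 to day 35, 7 members rose and 2 fell, of 38 tested (18.9% and 14.4% of all genes, medians 0.04 and 0.10). COL13A1 read 5.61, 5.53, 5.47 and 5.44 at day 35 and 8.82, 8.58, 8.66 and 8.71 at day 9 (-3.18 ± 0.10, adjusted p = 2.4e-16). COL6A1 read 9.29, 9.53, 9.62 and 9.77 and 7.40, 7.31, 7.30 and 6.99 (2.30 ± 0.15, adjusted p = 8.36e-12), and COL2A1 9.94, 9.84, 9.77 and 9.93 and 8.06, 7.83, 7.69 and 8.03 (1.97 ± 0.12, adjusted p = 3.73e-12). None of these overlapped, and nor did the rises of COL8A1 (1.83 ± 0.26), COL18A1 (1.73 ± 0.15), COL5A2 (1.31 ± 0.18), COL22A1 (1.19 ± 0.12) and COL9A3 (1.06 ± 0.21) or the fall of COL4A6 (-1.08 ± 0.11). For COL2A1 and COL13A1 the first-run change lay between days 9 and 14. Second-run COL2A1 was 7.88 ± 0.34 at day 1, 7.36 ± 0.82 at day 7, and first-run COL2A1 7.90 ± 0.17 at day 9, 9.93 ± 0.19 at day 14, 9.90 ± 0.12 at day 21 and 10.04 ± 0.27 at day 28. COL13A1 was 9.66 ± 0.32, 9.10 ± 0.73, 8.69 ± 0.10, 5.61 ± 0.10, 5.58 ± 0.27 and 5.47 ± 0.11 at these ages. Photoreceptor markers also stepped between these groups, from 10.48 to 10.73 at days 1, 7 and 9 to 9.29 to 9.36 at days 14 to 35, and their part was not tested. Centring arrays turned the share of higher calls among all genes from 56.8% to 41.0%. Over all probe sets 4 members were called and COL9A3 gave -0.09. In the second run, from day 1 to day 7, 0 of 32 were called by limma (0.00957% of all genes), 1 had an unadjusted p under 0.05, and the fit to the groups compared alone called 0.

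Few members were called by age in lung, pineal gland and spleen. In lung 0 of 32 members were called in either run (0% and 0.0563% of all genes), with 3 and 2 at an unadjusted p under 0.05. In pineal gland 0 of 36 were called by limma (0% of all genes), with 2 at an unadjusted p under 0.05. Fits to the groups compared alone called 0 in each. The medians over members were 0.06, -0.11 and -0.03, and those over all genes 0.00, -0.01 and 0.01. In spleen COL24A1 and COL21A1 fell from day 1 to day 14 and 0 rose, of 34 tested. Of all genes, 0.503% were called lower and 0.569% higher, with medians of -0.17 over members and -0.04 over all genes. COL24A1 read 6.75, 5.37, 7.15 and 6.54 at day 14 and 7.92, 8.23, 8.05 and 7.98 at day 1 (-1.59 ± 0.34, adjusted p = 0.0101). COL21A1, a FACIT known from vessel walls, read 7.81, 5.74, 7.06 and 7.00 and 7.98, 8.27, 8.70 and 8.88 (-1.55 ± 0.35, adjusted p = 0.0178). Neither overlapped, but leaving out any 1 replicate number left 0 or 1 called. Centring arrays turned the share of higher calls among all genes from 53.1% to 64.3%.

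Testes of week 17 had 4 members higher and 9 lower than ovary of week 17, with 3 arrays each and 36 members tested (14.2% and 17.7% of all genes, medians -0.43 and -0.06). The called members included 3 of the 6 type IV chains. COL12A1 read 7.35, 7.06 and 6.91 in testes and 10.24, 10.22 and 9.16 in ovary (-2.77 ± 0.37, adjusted p = 2.13e-06). COL4A4 read 6.55, 5.34 and 6.32 and 8.40, 9.05 and 7.82 (-2.35 ± 0.45, adjusted p = 0.00019), and COL4A5 6.88, 7.22 and 6.94 and 8.78, 9.44 and 8.93 (-2.04 ± 0.30, adjusted p = 1.01e-05). The groups were apart for all 3. COL9A1 read 7.31, 7.87 and 6.87 and 5.76, 5.62 and 4.96 (1.90 ± 0.30, adjusted p = 2.35e-05), and COL18A1 (1.47 ± 0.33), COL8A1 (1.27 ± 0.43) and COL11A1 (1.18 ± 0.31) were higher in testes too. COL4A6 (-1.68 ± 0.28), COL24A1 (-1.67 ± 0.33), COL1A1 (-1.67 ± 0.35), COL6A2 (-1.49 ± 0.31), COL6A3 (-1.33 ± 0.32) and COL23A1 (-1.09 ± 0.33) were lower, none overlapping. The ovary arrays of week 17 are labelled male. On simulated data this comparison gave 125 false calls among 10655 genes, a larger share of the simulated calls than the adjusted p of 0.05 allows. The simulation held 100 changed genes of each size, so its share of false calls need not be that of the reported calls. The prolyl hydroxylases P4HA2 (-4.59 ± 0.30) and P3H2 (-3.61 ± 0.29) were among 7 collagen-making genes lower in testes, of 26.

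In ovary 7 members were higher and 1 lower at year 2 than at week 17, of 36 tested (5.95% and 5.29% of all genes, medians 0.25 and 0.02). The arrays of week 17 are labelled male and those of year 2 female, so age and labelled sex cannot be told apart. COL4A2 read 10.58, 11.28 and 10.06 at year 2 and 8.97, 8.57 and 8.49 at week 17 (1.96 ± 0.36, adjusted p = 0.000916). COL1A1 read 13.31, 13.84 and 12.87 and 11.99, 10.83 and 11.55 (1.88 ± 0.35, adjusted p = 0.0011), and COL1A2 gave 1.90 ± 0.34, adjusted p = 0.000897. No array overlapped in these, nor in COL12A1 (1.88 ± 0.37), COL5A1 (1.53 ± 0.37), COL4A1 (1.38 ± 0.36), COL6A1 (1.03 ± 0.32) or COL23A1 (-1.16 ± 0.33), the member that was lower. Without replicate 2 of each group 3 members were called. The collagen-degrading protease genes MMP9 (4.58 ± 0.54), CTSK (2.79 ± 0.38) and MMP2 (1.69 ± 0.38) were higher at year 2, among 5 of 11 breakdown genes.

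The oocyte arrays of week 21 held little type I, III or VI collagen and more of 3 type IV chains than ovary. Of 36 members, 4 were higher and 15 lower than the mean of the ovarian cortex and both ovary groups (8.77% and 10.2% of all genes, medians -0.68 and 0.00). Some of the oocyte arrays are labelled male, as are the younger of the ovary arrays. COL1A1 read 5.42, 5.86, 5.52 and 5.05 in oocytes, and between 9.65 and 13.84 in the ovary groups (-6.10 ± 0.26, adjusted p = 5.52e-14). COL3A1 read 6.52, 6.41, 6.96 and 6.32, against 10.55 to 13.42 (-5.72 ± 0.22, adjusted p = 1.3e-14), and COL12A1 6.89, 6.17, 6.07 and 5.43, against 8.94 to 12.11 (-4.20 ± 0.27, adjusted p = 4.25e-11). Oocytes lay below every ovary array in these. COL4A4 read 12.24, 11.10, 9.73 and 11.51, against 7.66 to 9.05 (2.78 ± 0.33, adjusted p = 6.07e-07). COL4A5 read 10.29, 10.95, 10.03 and 10.65, against 7.73 to 9.76 (1.74 ± 0.22, adjusted p = 1.76e-06), and COL4A3 7.18, 7.09, 7.50 and 7.02, against 5.53 to 6.43 (1.04 ± 0.22, adjusted p = 0.000711). Each of these chains was above every ovary array, while COL14A1 (1.76 ± 0.29) was higher with overlap. COL4A1 (-2.44 ± 0.26) and COL4A2 (-3.21 ± 0.26), the chains of general basement membrane, were lower.

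Also lower in oocytes, without overlap, were COL6A2 (-4.08 ± 0.23), COL5A1 (-3.80 ± 0.27), COL6A1 (-3.72 ± 0.23), COL6A3 (-3.57 ± 0.23), COL1A2 (-2.17 ± 0.25), COL17A1 (-1.55 ± 0.26), COL2A1 (-1.31 ± 0.24) and COL18A1 (-1.21 ± 0.24). COL5A2 (-1.58 ± 0.28) and COL9A2 (-1.03 ± 0.24) were lower with overlap. These arrays held GDF9 at 5.92, below the ovary groups, and ZP3, an egg coat protein, at 14.04, above the 6.41 to 10.79 of the ovary groups. FOXL2, a granulosa cell factor, was at 11.67, within the 10.45 to 13.15 of the ovary groups, and FSHR at 9.47 against 7.74 to 8.42. Which cells these arrays hold was not tested, so the levels are those of arrays labelled oocytes. Fibroblast markers were at 6.13 to 6.3, against 7.44 to 8.32 in the ovary groups, and endothelial markers at 5.99 against 6.67 to 7.14, with 5 of 11 fibroblast markers lower and 1 higher. Their part was not tested. The collagen-making genes LOXL1 (3.19 ± 0.23), SPARC (2.93 ± 0.23) and P4HA1 (2.35 ± 0.29) were higher in oocytes, among 6 of 26.

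**Figure D5:**
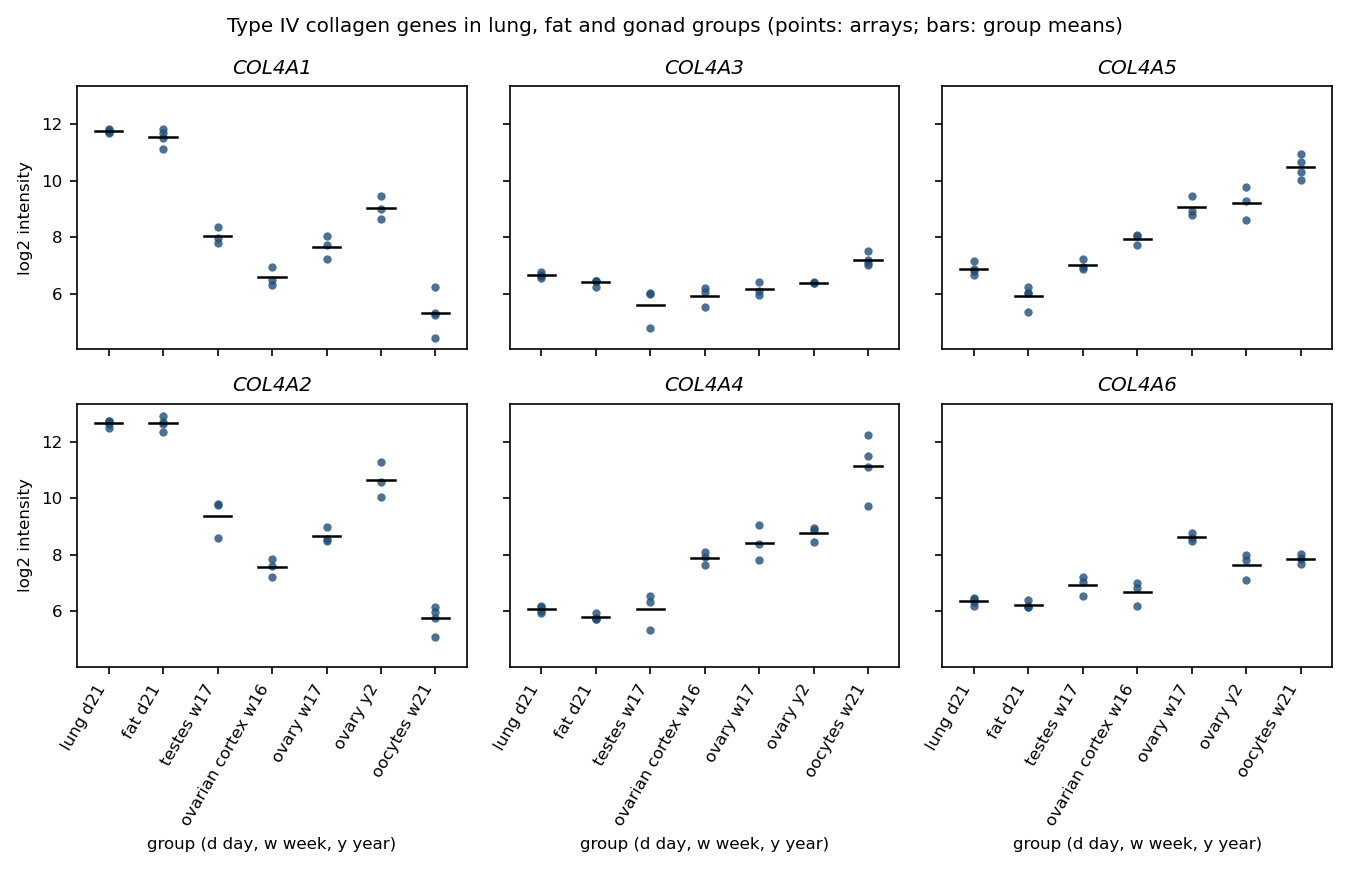
Log2 intensity of the 6 type IV collagen genes in each array of lung and fat of day 21, testes, ovarian cortex, ovary and oocytes, 1 panel per gene. COL4A1 and COL4A2 are highest in lung and fat, and COL4A4 is highest in oocytes, where its arrays lie between 9.73 and 12.24.

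Genes other than collagens whose level followed a collagen most closely were listed by Pearson's r of group means over the 101 groups, as a description. Among the collagens themselves, COL1A1 was closest to COL1A2 (0.931), COL4A2 to COL4A1 (0.965), COL11A1 to COL2A1 (0.906) and COL9A1 to COL10A1 (0.955). Of the other genes, COL1A2 was followed by LUM (0.903), POSTN (0.887), LAMB1 (0.882), DCN (0.842), PRSS23 (0.832) and FBLN2 (0.818). COL4A1 had LUM (0.925), POSTN (0.911), LAMB1 (0.876), NID1 (0.874), SOX18 (0.869) and CDH5 (0.863). LUM, POSTN and LAMB1 thus led both lists, and NID1 encodes a basement membrane linker. COL2A1 had CLEC3A (0.92), AFF3 (0.89), CYTL1 (0.866), EXTL1 (0.847), MATN4 (0.834) and TRPV4 (0.832). COL10A1 had MATN4 (0.966), PANX3 (0.963), SNORC (0.961), ACAN (0.96), IBSP (0.957) and TRPV4 (0.954), among them ACAN, the main cartilage proteoglycan. Many of the groups are ages of the same tissue, and the growth plate groups carry much of the spread of COL2A1 and COL10A1.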

How the data were processed

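Total RNA was extracted with Trizol, made into biotin-labelled cRNA and hybridised to Affymetrix chicken genome arrays, per the labels' protocols. The authors deposited 1 log2 intensity per probe set and array, with Affymetrix Expression Console 1.1 named in the submitters' processing notes. No source used here gives the normalization method, so any scaling between arrays is inherited. Of 38535 probe sets, 96 were controls, 27168 had 1 symbol in the platform annotation, 177 several and 11094 none, and 26853 of those with 1 symbol matched the gene table by gene number. Symbols are those of the platform annotation, which can be old.

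The members, the gene lists and the rule for named genes were chosen with earlier results of these data known. Array values were to be given for called members whose groups do not overlap, in order of size, for at most 8 members per organ class and at most 12 each way elsewhere, and the longest comparisons give fewer. Groups came from the labels for tissue and age, and the 2 runs from the sample numbers, since the labels name no batch. Pectoralis arrays with conflicting ages entered no comparison.

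limma 3.58.1 in R 4.3.3 fitted 1 mean per group with eBayes over all genes, p-values being adjusted by the Benjamini-Hochberg method over all genes of each of 34 comparisons. Dim genes, with no group mean above the 25th percentile of a fit's values, were left out. Groups of wide and narrow spread share 1 SE in a fit. The fit was tested on simulated data with known changes, and it fell short in places. Testes against ovary gave 125 false calls among 10655 genes, a larger share of the simulated calls than the adjusted p of 0.05 allows. With 100 changed genes of each size, it recovered 72% and 92% of differences of 1.5 and 2. First-run growth plate by age recovered 53% and 71% of these, with 14 false calls. First-run fat by age recovered 92% and 97%, with 3 false calls. The growth plate class recovered 99% and 100% of differences of 3 and 4, with 1 false call. Alternatives were quantile normalization, centring arrays on their median, no filter, array weights, the mean of a gene's probe sets, other ages, only the groups compared, the replicate number as a block, and leaving out each replicate number. All same-numbered arrays had an r of their deviations above 0.1 only in first-run lung (0.433 to 0.706) and in testes and ovary (0.107 to 0.485). The block changed no count there. Python 3.11.15, pandas 2.3.3 and matplotlib 3.10.9 were used for summaries and figures. No sequences were printed, since none were used here.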

Additional observations from a re-analysis of the deposited data

Results flagged for a closer look

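Among 160 sets of 1 collagen in 1 group of 4 to 10 arrays whose values are reported, 7 held an array far from the others, where chance gives about 1 in 20. COL13A1 in duodenum of day 49 read 9.39 in replicate 2, the lowest of 10.36, 9.39, 10.22 and 10.35. COL4A5 in the same group read 7.66 in replicate 3, with the other arrays at 8.08 to 8.10. COL18A1 in liver of day 49 read 8.09 in replicate 1, the lowest of 8.09, 8.94, 8.94 and 9.06. COL1A2 in retina of day 21 read 7.88 in replicate 4, against 5.66 to 5.68 in the others, and that array was also the highest for COL1A1 and COL3A1. COL4A1 in brain of day 42 read 6.71 in replicate 1, the highest of 6.71, 6.19, 6.20 and 6.14. COL4A1 in the growth plate of day 21 read 6.97 in replicate 2, the highest of 5.48, 6.97, 5.71 and 5.54. COL8A1 in abdominal fat of day 42 read 9.78 in replicate 1, against 6.40 to 6.84 in the others.

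COL4A2 changed in opposite directions with age in 2 tissues of the second run. It was higher at day 49 than at day 1 in brain (1.77, 4 of 4 arrays above all 4 early arrays) and lower in duodenum (-1.90, 4 of 4 below). The difference between the tissues was not tested, and the early brain arrays were low in MBP.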

How the results depend on the processing

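Of 389 recomputed counts of called collagens, 349 stayed within 1.5 times of the reported count and 40 did not. Of 2674 recomputed tests of the 233 called collagens, 2403 kept their direction and call, 261 lost the call and 10 reversed. Averaging every probe set of a gene gave the most changes: fat class 7, brain class 3, intestine class 2, muscle class 1, lung class 1, retina class 3, pineal gland and spleen classes 0, whole intestine 2, liver 5, first-run brain 4, second-run brain 2, first-run retina 4, testes against ovary 7 and ovary at year 2 4. It reversed COL2A1 in the retina class (-0.18) and, by age, COL2A1 in first-run pectoralis (0.031) and COL9A3 in retina (-0.089). Arrays of day 7 came from both runs and added gastrocnemius, whole intestine and liver. They gave 2 in brain, 0 in intestine, 8 in muscle, 5 in lung, and 1 each in pineal gland and spleen. They reversed COL4A1 in fat (-0.20), COL12A1 in brain (0.013) and COL1A1 (2.54), COL4A1 (2.77), COL4A2 (2.10) and COL6A2 (1.90) in muscle. Brain of day 28 gave 7 in the brain class, and brain of day 28 together with no muscle class gave 4 in the intestine class. Quantile normalization gave 8 in the muscle class and 14 in first-run fat. With day 7 in place of day 21, first-run pectoralis had 9 and COL3A1 reversed (0.08). Without the 2 growth plate arrays that match, that tissue had 3. The cause was not tested.

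Leaving out a replicate number gave 0 to 2 in the intestine class, 5 to 8 in muscle, 0 to 2 in first-run growth plate, 0 to 2 in jejunum, 0 to 1 in spleen by age, 3 to 7 in ovary at year 2 and 2 to 5 in muscle of day 7. The replicate number as a block gave 7 collagens in muscle of day 7 in place of 4 and moved no other count by 1.5 times. In muscle of day 7 same-numbered arrays gave r = 0.042 to 0.564, with 2 of 4 nearest their own number. In first-run liver r reached 0.584, with 3 of 4 nearest their own number. Whether such arrays are paired was not tested. Removing the filter, centring arrays, weighting arrays and fitting only the groups compared moved no count by 1.5 times. Signal over background limits the dim members: COL10A1 and COL25A1 most often lay below the filter.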
